A study of Mus musculus with 4 samples.

Results

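Fibroblasts from mouse embryos (MEFs) were sorted by staining for 3 proteins in the course of reprogramming, in which differentiated cells are driven toward pluripotency, and the RNA of each fraction was read on a microarray. The comparison described here sets cells at one end of the sort, stained for Oct4, Klf4 and EpCAM, against cells at the other end, negative for Oct4. Its values are the deposited log2 levels, with each gene represented by the probe set that had the highest mean over the 4 arrays. Of 18193 named genes, 11428 were measured, meaning that 1 array or more showed them at or above a floor of 4.53, which is the median over the whole value table. Of these, 2588 were called, 1357 higher and 1231 lower at the EpCAM-positive end, by a difference of at least 2-fold with the higher of both levels at the floor or above.

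Each of the 4 fractions has 1 array. The first holds the Oct4-negative cells, and the second, called Oct4+Klf4-negative here, holds Oct4-positive cells without Klf4. Cells positive for both make up the third where EpCAM was absent (Oct4+Klf4+EpCAM-negative), and the last where it was present (Oct4+Klf4+EpCAM+). All of them were embryonic fibroblasts that had been fixed and made permeable before staining, and their RNA was extracted with a kit for fixed material (RecoverAll) and amplified (Ovation Pico WTA) before hybridization. The labels give no strain, genotype, introduced factors, time of sorting or culture, and no Klf4 or EpCAM gate for the Oct4-negative cells. Any such difference between the ends thus cannot be told apart from the sort. No EpCAM gate is given for the Oct4+Klf4-negative cells either. A difference between those cells and the Oct4+Klf4+EpCAM-negative ones can therefore come from either gate. With 1 array a fraction there is no test, no p-value and no error of a difference, and every statement below compares 2 or more arrays, not conditions. Levels are listed in the order of the fractions above. A difference in a sorted fraction can come from more cells with a transcript or from more transcript per cell, and these cannot be told apart here.

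Fibroblasts are mesenchymal cells. They migrate singly, build an extracellular matrix of collagens and elastic fibres and contract it with actin stress fibres. Epithelial cells are instead held in sheets by E-cadherin, desmosomes and tight junctions, and carry a keratin cytoskeleton. The passage between these states runs through antagonistic regulators: Zeb, Snai and Twist factors repress epithelial genes, while Grhl, Ovol and Esrp proteins maintain them. A mesenchymal-to-epithelial transition is a well known early part of fibroblast reprogramming. EpCAM, the marker of the last gate, is an epithelial surface adhesion protein.

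The total difference of a gene is the sum of its steps at the Oct4, Klf4 and EpCAM gates, each step being the difference between neighbouring fractions. This is arithmetic: the steps share arrays with one another and with the total. The Klf4 step sets cells with no stated EpCAM gate against EpCAM-negative ones, so it can hold a difference in EpCAM gating too. Array medians lay between 4.49 and 4.55, and between 75.9% and 76.7% of genes lay above the background ceiling of 2.94, set by the brightest value among 27 control probe sets for bacterial transcripts that stayed dim on each array. Where the dimmer level was at or under that ceiling, the ceiling took its place in the fold, which is then written as "at least". The control probe sets for both transcript ends of Actb lay between 11.61 and 11.85 on all arrays, and those of Gapdh between 11.04 and 12.34.

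The transcripts of the sorted proteins followed the gates in their main probe sets. Pou5f1, which encodes Oct4, had levels of 7.59, 11.48, 11.66 and 11.70, so that 3.89 of its total of 4.12 fell at the Oct4 gate. Epcam had levels of 4.63, 5.20, 6.54 and 9.52, with 2.98 of its total of 4.89 at the EpCAM gate. The brighter probe set of Klf4 read 7.32, 6.24, 10.20 and 10.60. The other probe set of Klf4 read 6.95, 5.69, 2.67 and 3.20, against the gate, so the direction of Klf4 rests on which is used. The Oct4-negative fraction thus held Pou5f1 and Klf4 levels above the floor.

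Fibroblast markers were checked as well. Of the 10 markers taken, 8 were measured, 7 were lower at the EpCAM-positive end and 1, Dcn, was higher. Pdgfra and Fap stayed under the floor on all arrays. The sum of the 10 levels on the linear scale was 15683 in the Oct4-negative fraction, 9214 and 6869 in the next fractions and 3970 in the EpCAM-positive one. Dcn, the 1 higher marker, led the sum of the EpCAM-positive fraction with a level of 10.98. All 8 measured markers still reached the floor in the EpCAM-positive fraction, with Vim at 9.02, S100a4 at 10.21 and Col3a1 at 6.41.

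Genes of epithelial adhesion and the skin barrier were among the largest increases, and genes of the fibroblast matrix among the largest decreases. Higher calls made up 11.9% of the measured genes and lower calls 10.8%. The median total over measured genes was 0.07 on the log2 scale, and the 5th and 95th percentiles of the totals were -1.80 and 2.03. Gene lists are counted below over their measured members. A gene can reach the floor through the fraction where it is high, so these counts and medians describe the measured members and are no support for a difference of the whole list. Where a called gene had another probe set at the floor, that probe set pointed the same way in 97.3% of 842 cases for higher genes and 99.0% of 1039 cases for lower genes.

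**Figure D1:**
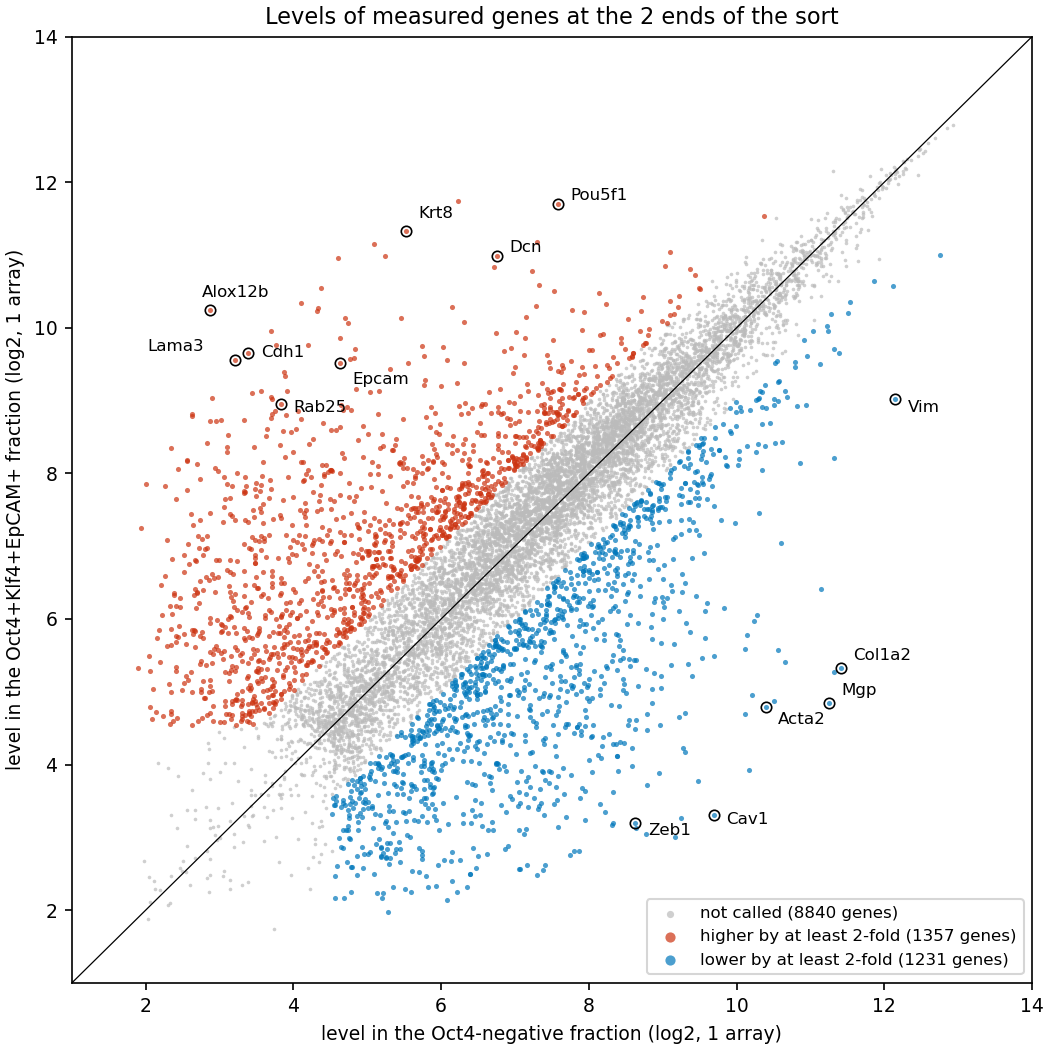
Level of each of 11428 measured genes in the Oct4-negative fraction (x axis) and in the Oct4+Klf4+EpCAM+ fraction (y axis), both in log2 units from 1 array each; red points are the 1357 genes higher and blue points the 1231 genes lower by at least 2-fold, and the line marks equal levels. Named genes are ringed, from Alox12b at 2.87 and 10.25 to Mgp at 11.25 and 4.84.

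The largest increase was that of Alox12b, a lipoxygenase of the skin's water barrier, with levels of 2.87, 4.86, 7.92 and 10.25. It was at least 158-fold higher at the EpCAM-positive end and stepped up by more than 2-fold at each gate. Lama3, a laminin chain of epithelial basement membranes, followed at 3.20, 4.86, 9.11 and 9.56, 82.1-fold higher. Aqp3, an epidermal water and glycerol channel, had levels of 4.60, 6.35, 10.45 and 10.96, 82.0-fold higher. For Lama3 and Aqp3 the Klf4 step held 4.25 and 4.10 of totals of 6.36 each, and the EpCAM step about 0.5. Cyp4f39, a fatty acid hydroxylase of barrier lipids, and Cyp2s1, a cytochrome P450 of epithelia, were 75.2-fold and 72.0-fold higher. Pkp1, a desmosomal plakophilin, and S100a14, an epithelial calcium-binding protein, were 60.7-fold and 61.2-fold higher. Slc39a8, a zinc importer, was at least 42.6-fold higher, with levels of 2.34, 2.91, 8.43 and 8.35 that differed at the Klf4 gate and hardly elsewhere. Also among the 15 were Sox1, a neural transcription factor, at 2.90, 5.05, 9.10 and 9.03, the noncoding RNA Miat, the transcription cofactor Eya2, the mucin glycosyltransferase Gcnt3, the calcium pump Atp2a3 and the surface protein Ly6g6c, whose totals ran from 6.0 to 6.27.

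The largest decrease was that of Mgp, an inhibitor of calcification secreted by fibroblasts, with levels of 11.25, 7.11, 5.63 and 4.84, 84.9-fold lower at the EpCAM-positive end. Most of the difference of Mgp, a step of -4.14 in a total of -6.41, lay at the Oct4 gate. Cav1, the caveola coat protein, had levels of 9.69, 8.53, 4.99 and 3.30, 83.8-fold lower, with a step of -3.55 at the Klf4 gate. Loxl1, which crosslinks elastin, read 10.17, 7.61, 4.41 and 3.92, 76.0-fold lower. The collagen I chains Col1a2 and Col1a1 were 68.0-fold and 66.8-fold lower, and the matrix proteoglycan Bgn 49.7-fold lower. Acta2, smooth muscle actin, had levels of 10.40, 8.48, 5.86 and 4.79. Zeb1, the repressor of epithelial genes, was 43.2-fold lower with a different course: 8.63, 7.99, 7.12 and 3.20, the last in the EpCAM-positive fraction. The other decreases among the 15 were Cyp1b1, Fhl1, Sfrp2, Efemp1, Tnc, Serpinf1 and Fbn2, with totals from -6.17 to -5.26.

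Averaged over the 1357 higher genes, the total of 2.22 was made of 0.27 at the Oct4 gate, 1.40 at the Klf4 gate and 0.55 at the EpCAM gate, or 12.0%, 63.1% and 24.9%. Averaged over the 1231 lower genes, the total of -2.07 was made of -0.63, -1.02 and -0.42, or 30.4%, 49.2% and 20.4%. The Klf4 step was the largest in the direction of the total for 66.0% of the higher genes and 55.3% of the lower ones. The Oct4 step was the largest for 13.6% of higher and 33.4% of lower genes, and the EpCAM step for 20.4% and 11.3%. Thus the Oct4 gate held a larger part of the decreases than of the increases, and the EpCAM gate a larger part of the increases. Over all measured genes, too, the Klf4 step varied most, with an SD of 0.91 against 0.68 for the Oct4 and 0.48 for the EpCAM step. The gate of the largest step was not counted over all measured genes. Among the 300 genes higher by 3 or more on the log2 scale, the Klf4 step was the largest for 73.3% and the Oct4 step for 7.0%. Among the 214 genes lower by as much, the Klf4 step was the largest for 56.5% and the Oct4 step for 33.6%.

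**Figure D2:**
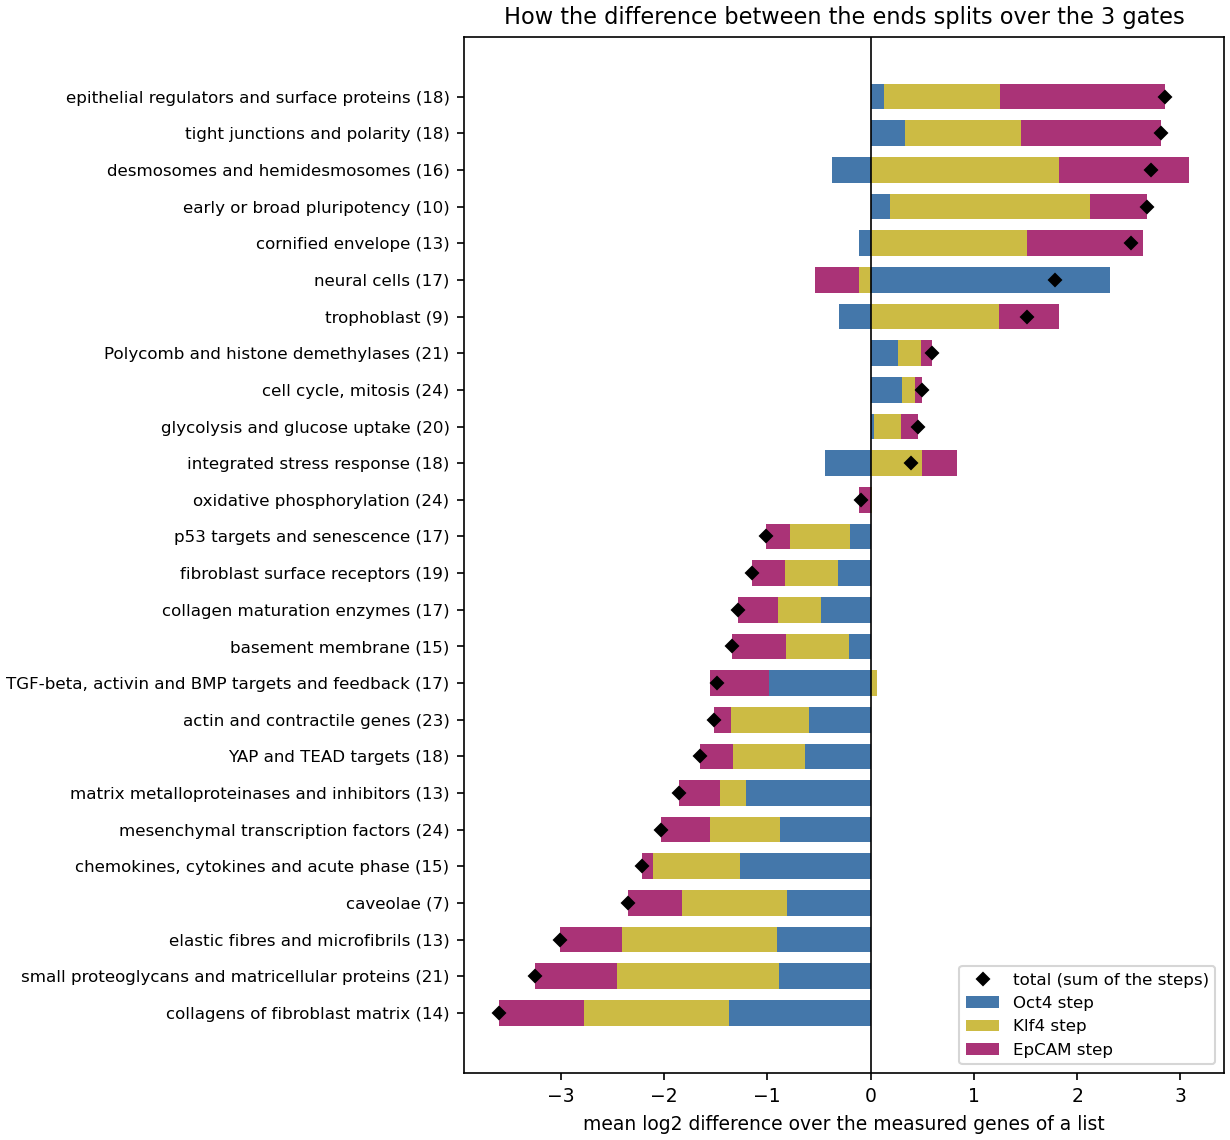
Mean log2 step at the Oct4, Klf4 and EpCAM gates over the measured genes of 26 gene lists (number measured in brackets), stacked to the right of 0 where positive and to the left where negative; the diamond is the mean total. The epithelial lists have their bars at the Klf4 and EpCAM gates, the neural list has its bar of 2.32 at the Oct4 gate, and the collagen list spreads its total of -3.60 over all 3.

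Epithelial regulators and surface proteins were higher almost throughout. Of 18 measured, 15 were higher and 0 lower, with a median total of 2.75 against 0.07 for all measured genes, and the mean steps were 0.13, 1.13 and 1.59. Epcam, whose protein was sorted for, is a member of this list and is counted among the 15 and among those with the largest step at the EpCAM gate. Cdh1, which encodes E-cadherin, had levels of 3.39, 4.40, 7.65 and 9.66, 77.2-fold higher, with steps past 2-fold at each gate. Esrp1, an epithelial splicing regulator, read 4.10, 4.06, 5.97 and 8.75, and the transcription factor Grhl2 read 3.58, 4.20, 5.53 and 8.16. Grhl1, Grhl3, Ovol1, Elf3 and Elf5, further epithelial transcription factors, had totals of 4.04, 2.40, 2.73, 2.32 and 2.93. The protease inhibitor Spint1 and the membrane protease St14 that it restrains had totals of 3.55 and 2.78. Their largest step lay at the EpCAM gate for 10 of the 15 higher genes and at the Klf4 gate for the other 5. Esrp2 at 8.27 and 8.33, Klf5 at 7.03 and 6.77 and Cd24a at 10.61 and 11.14 were alike at both ends, and high in the Oct4-negative fraction already.

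Tight junction and polarity genes followed the same order of gates, with 15 of 18 measured genes higher and 0 lower, a median total of 2.47 and mean steps of 0.34, 1.12 and 1.35. Crb3, an apical polarity protein, had levels of 3.88, 4.34, 7.40 and 9.40. Rab25, a GTPase of apical recycling, had 3.83, 4.02, 4.81 and 8.95, so that 4.15 of its total of 5.13 lay at the EpCAM gate. The claudins, which form the junction's strands, split over the gates. Cldn7 at 2.76, 2.86, 3.35 and 7.10 and Cldn4 at 2.16, 2.27, 2.80 and 5.74 were at or near background until the EpCAM gate. Cldn3 at 4.03, 4.50, 7.64 and 8.61 and Cldn5 at 3.21, 3.59, 6.81 and 7.37 differed mainly at the Klf4 gate. Cldn1 at 2.89, 5.70, 6.58 and 5.40 was higher by 2.81 at the Oct4 gate and lower by 1.19 at the EpCAM gate. The scaffold Tjp1, at 9.06 and 9.48, and Pard3, at 7.15 and 7.36, hardly differed between the ends.

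Of 16 measured desmosome and hemidesmosome genes 11 were higher and 0 lower, with a median total of 3.32. Their mean steps were -0.37, 1.83 and 1.26, so that the Oct4 gate ran slightly against the total. The desmosomal cadherins Dsc2 and Dsc3 had totals of 5.63 and 5.14, and the linker Dsp had levels of 7.23, 6.69, 9.95 and 10.78. Jup, plakoglobin, had 6.70, 4.36, 6.90 and 8.22, so that it was lower past the Oct4 gate and higher from the Klf4 gate on. Plec, Dst and Perp, which fibroblasts also carry, had totals of -0.05, -0.05 and 0.38. Genes of the cornified envelope, the protein shell of the outermost skin cells, were higher for 10 of the 13 measured of 21 on the array, with a median total of 2.5. With no floor the median over the 21 was 0.94. Krtdap, a keratinocyte differentiation protein, had levels of 6.22, 7.15, 11.30 and 11.75, and the envelope crosslinkers Tgm1 and Tgm3 had totals of 3.43 and 4.08. Ivl, involucrin, stayed between 4.39 and 4.81.

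Among 181 families of genes sharing a symbol stem, with at least 8 measured members each, keratins (Krt) had the highest median total, 2.02, with 12 of 22 members higher and 0 lower. Krt8, a keratin of simple epithelia, had levels of 5.53, 5.94, 9.50 and 11.34. Keratins of stratified epithelia were higher too, Krt16 at 4.70, 4.99, 7.90 and 10.14, Krt6b at 2.70, 2.14, 5.84 and 8.13, and Krt14 at 4.06, 3.96, 7.05 and 8.85. Krt17 and Krt6a had their largest steps at the EpCAM gate, 2.90 and 2.53. Krt18, the partner of Krt8, read 6.99, 5.10, 5.11 and 7.11, so that its ends were alike and the fractions between them lower. Krt5, Krt7 and Krt10 had totals of -0.02, -0.09 and -0.05. The kallikrein proteases (Klk), several of which act in skin shedding, came next with 7 of 9 members higher, 0 lower and a median of 1.79. Klk13, Klk11 and Klk10 had totals of 4.46, 4.43 and 3.54, and for 5 of the 7 the largest step lay at the EpCAM gate.

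**Figure D3:**
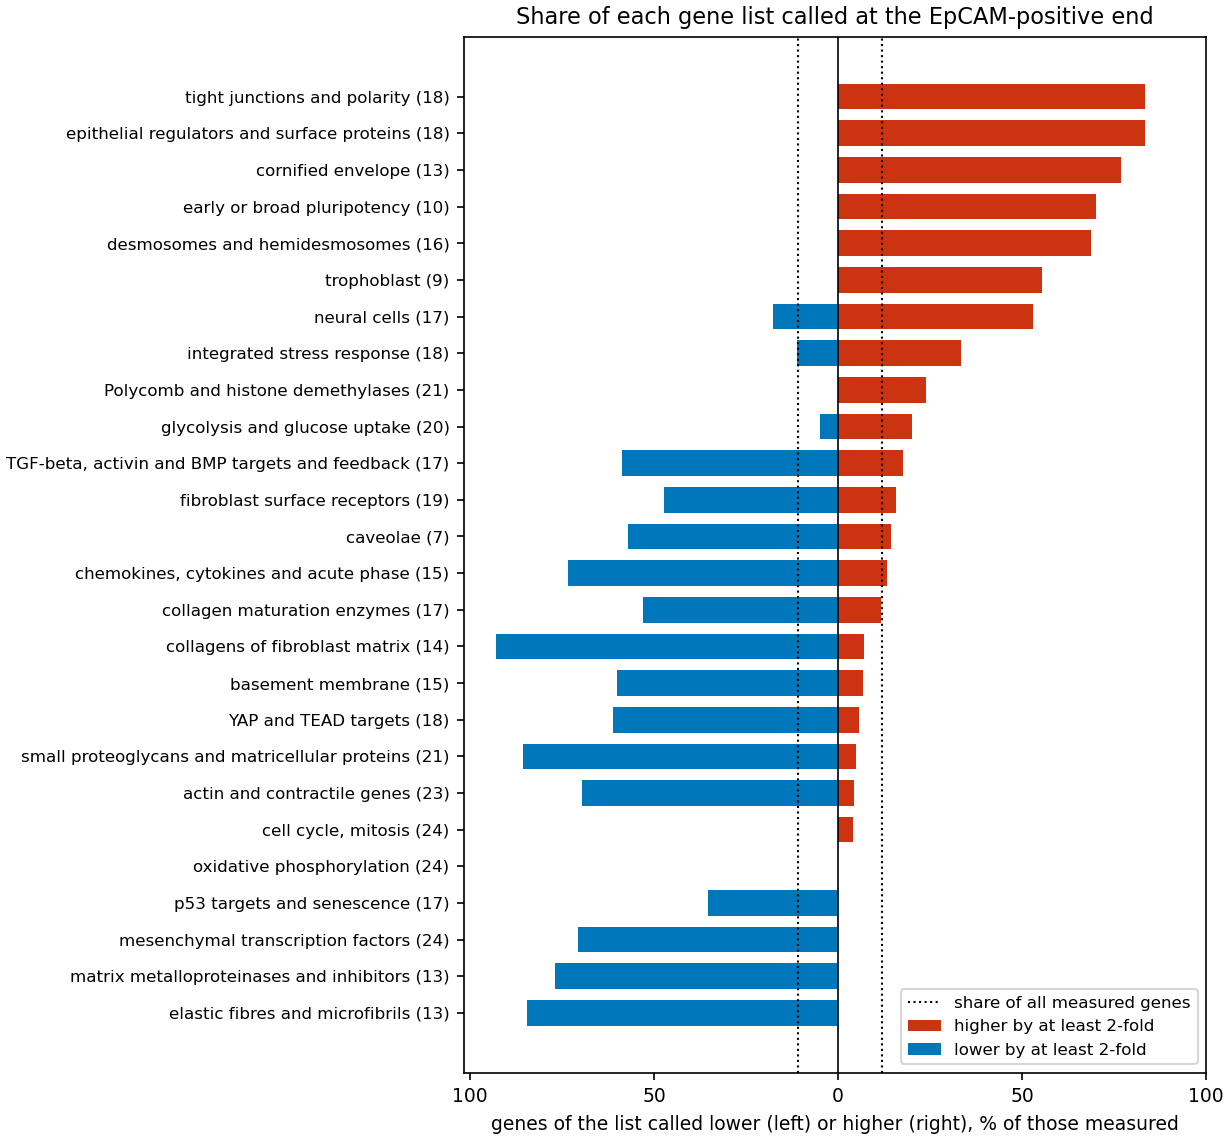
Share of the measured genes of 26 gene lists called higher (red, right) or lower (blue, left) at the EpCAM-positive end, in percent, with the number measured in brackets; dotted lines mark 11.9% and 10.8%, the shares over all measured genes. In the lists of epithelial regulators and of tight junctions 15 of 18 genes are higher and 0 lower, and 13 of the 14 collagen genes are lower.

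Promoters of measured genes were searched for short motifs, among them CAGGTG, the E-box that Zeb and Snai factors are known to bind. The windows, from RefSeq on build GRCm38.p6, hold 250 bases before and 50 after the start of transcription. In them 10 motifs were looked for on both strands, over the 7361 measured genes that have 1 window. CAGGTG stood in 17.3% of all these windows, in 27.8% of those of 795 higher genes and in 12.9% of those of 746 lower genes. Among higher genes it stood in 48.2% of 164 windows where the EpCAM step was the largest, in 22.8% of 523 where the Klf4 step was, and in 21.3% of 108 where the Oct4 step was. With every window of a gene counted, the shares were 50.5% for 206 genes with the largest step at the EpCAM gate and 21.0% for all 9274 genes. Windows were also parted by GC content into 3 equal groups. In the group of lowest GC the motif stood in 21.6% of higher and 12.6% of lower genes. In that of highest GC the shares were 30.3% and 13.8%. Higher genes with the largest step at the EpCAM gate were not parted in this way. Their median ratio of observed to expected CpG was 0.556, against 0.786 for all windows. Whether base composition bears on their share was not tested. A match is a string of letters and not a bound site, and no binding was measured.

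Repeats of the motif within a window were counted only for 5 genes whose largest step lay at the EpCAM gate. Their windows each hold it more than once and are shown as examples, without a share over other windows. They are written 5′ to 3′ on the gene's strand, with CAGGTG or its reverse complement CACCTG in capitals. Epcam is at chr17:87635729-87636028 on the plus strand, with Rab25 at chr3:88548230-88548529, Grhl3 at chr4:135573583-135573882, Ap1m2 at chr9:21312284-21312583 and Cldn4 at chr5:134946885-134947184 on the minus strand. Ap1m2 encodes an epithelial sorting adaptor, with levels of 3.07, 2.96, 3.51 and 5.89. Its window holds 4 matches, the others 2 each.
Epcam: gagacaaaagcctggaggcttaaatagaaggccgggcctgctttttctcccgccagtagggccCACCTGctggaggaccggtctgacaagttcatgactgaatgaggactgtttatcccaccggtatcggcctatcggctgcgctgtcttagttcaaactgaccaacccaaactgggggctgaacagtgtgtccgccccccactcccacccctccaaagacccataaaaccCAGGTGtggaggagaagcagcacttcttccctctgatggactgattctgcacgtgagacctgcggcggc
Rab25: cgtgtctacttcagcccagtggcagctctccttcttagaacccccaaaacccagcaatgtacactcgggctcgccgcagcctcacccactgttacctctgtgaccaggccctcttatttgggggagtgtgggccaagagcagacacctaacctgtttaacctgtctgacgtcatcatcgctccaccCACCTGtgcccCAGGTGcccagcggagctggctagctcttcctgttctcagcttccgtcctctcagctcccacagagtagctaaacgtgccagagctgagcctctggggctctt
Grhl3: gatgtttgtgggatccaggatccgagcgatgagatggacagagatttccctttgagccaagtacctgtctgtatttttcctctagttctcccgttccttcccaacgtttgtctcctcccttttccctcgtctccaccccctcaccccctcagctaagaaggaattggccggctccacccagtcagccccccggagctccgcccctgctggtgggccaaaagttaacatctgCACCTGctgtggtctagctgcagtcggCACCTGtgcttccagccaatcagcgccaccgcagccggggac
Ap1m2: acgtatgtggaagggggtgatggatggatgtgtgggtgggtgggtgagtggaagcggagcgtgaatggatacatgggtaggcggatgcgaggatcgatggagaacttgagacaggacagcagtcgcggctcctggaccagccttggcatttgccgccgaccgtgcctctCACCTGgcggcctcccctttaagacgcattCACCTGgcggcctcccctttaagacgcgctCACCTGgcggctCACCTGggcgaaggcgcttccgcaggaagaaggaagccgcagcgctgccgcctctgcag
Cldn4: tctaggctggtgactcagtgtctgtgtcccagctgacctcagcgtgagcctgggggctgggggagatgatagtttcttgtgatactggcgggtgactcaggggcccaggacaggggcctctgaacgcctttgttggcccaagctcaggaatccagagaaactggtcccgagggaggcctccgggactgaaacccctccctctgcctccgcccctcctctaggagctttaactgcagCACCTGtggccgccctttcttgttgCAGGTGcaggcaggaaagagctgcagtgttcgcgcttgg

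**Figure D4:**
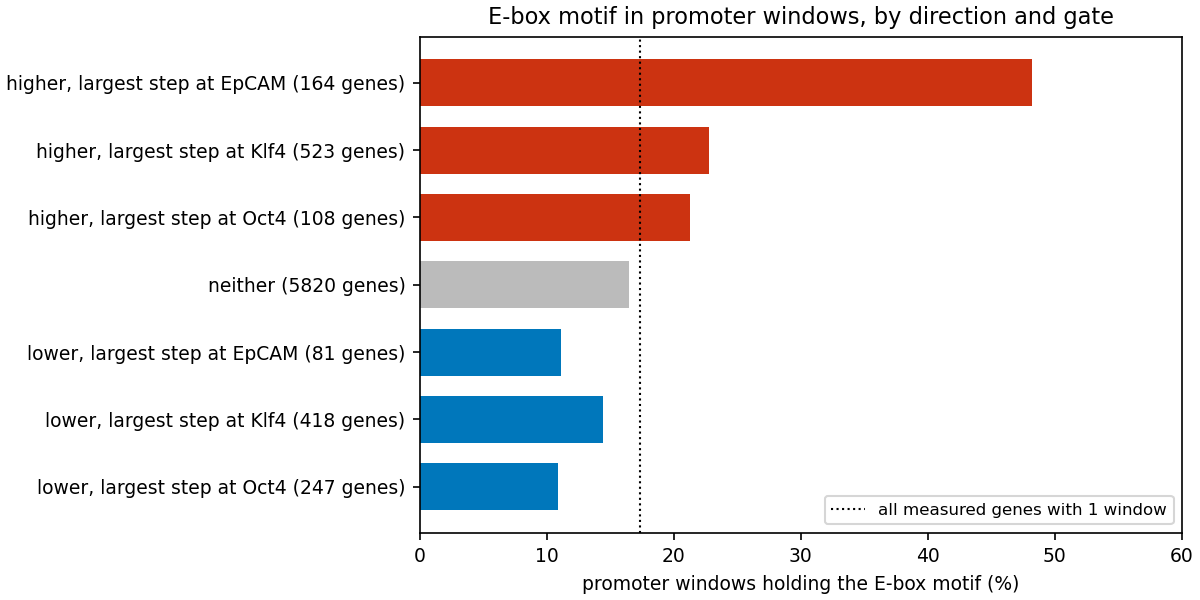
Share of promoter windows that hold the E-box motif, in percent (x axis), for genes lower (blue), not called (grey) and higher (red) at the EpCAM-positive end, with called genes parted by the gate of their largest step and the number of genes in brackets. The dotted line is 17.3%, the share over all 7361 windows; the bar of higher genes with the largest step at the EpCAM gate reaches 48.2%.

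Of the 9 other motifs, TATAAA stood in 6.86% of all windows, 9.94% of higher and 9.52% of lower ones. The octamer ATGCAAAT, which Oct4 binds, stood in 1.41% of all windows, 2.77% of higher and 2.14% of lower ones. The AP-1 motif TGANTCA stood in 4.40% of all windows, 6.16% of higher and 4.56% of lower ones, and the CRE motif TGACGTCA in 3.37% of all windows, 2.52% of higher and 0.804% of lower ones. The CArG box of serum response factor stood in 1.29% of all windows, 1.13% of higher and 2.28% of lower ones. GGGCGG, bound by Sp factors, stood in 67.7% of all windows, 66.3% of higher and 68.8% of lower ones. GGGTGTG, bound by Klf factors, stood in 8.48%, 10.9% and 8.98%, in the same order. ACATTCC, bound by TEAD factors, stood in 2.55%, 2.64% and 3.89%. AACNGGTT, bound by Grhl factors, stood in 1.77%, 2.01% and 1.88%. Median GC content was 61.3% in higher and 62.7% in lower windows.

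Pluripotency genes were higher in part. Of 17 early or broad pluripotency genes on the array 10 were measured, of which 7 were higher and 0 lower, with a median total of 2.06 and mean steps of 0.19, 1.93 and 0.55. The median was 0.55 over all 17 with no floor and 5.42 with a floor at the 75th percentile. Fgf4, a growth factor gene of the inner cell mass, had levels of 2.95, 2.95, 8.28 and 8.73. Sall4, a stem cell transcription factor, read 3.11, 3.53, 7.18 and 8.53, L1td1, an RNA-binding protein, 3.44, 4.96, 8.93 and 9.11, and Lin28a, a let-7 antagonist, 2.95, 2.62, 5.11 and 6.81. Of 20 naive pluripotency genes 6 were measured. Of these 1, Nr0b1, was higher by 3.76 and 1, Tet1, was lower by 1.98. Nanog, Esrrb, Zfp42, Dppa3, Tfcp2l1 and Prdm14 stayed under the floor on all arrays, the highest value among them being 3.66. Sox2 reached no more than 3.15 on any array.

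Markers of other lineages were higher in part too. Of 9 measured trophoblast genes 5 were higher, among them Tfap2c at 3.39, 3.19, 5.81 and 7.34, Hand1 at 4.69, 4.95, 7.68 and 8.21 and Tead4 at 5.80, 5.63, 8.18 and 8.77, while Cdx2 and Eomes stayed under the floor. The linear levels of the 15 trophoblast genes summed to 368 in the Oct4-negative and 1264 in the EpCAM-positive fraction. Of 17 measured neural genes 9 were higher and 3 lower, with mean steps of 2.32, -0.11 and -0.42. Elavl2, a neuronal RNA-binding protein, had 3.02, 8.54, 8.79 and 8.73, whereas Stmn2 and Tubb3, of the neuronal cytoskeleton, had 5.24, 6.93, 11.17 and 10.98 and 4.83, 4.53, 8.84 and 9.71. Nes, nestin, was lower by 2.72, and Pax6, Sox3, Dcx and Gfap stayed under the floor. The 23 neural genes summed to 1262, 4722, 5245 and 4699. What part other cell types have in the totals was not tested.

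Lists of blood and vessel markers were mixed. Of 5 measured endothelial genes 3 were higher and 1 lower, of 3 erythroid genes 2 were higher, and of 5 leukocyte genes 2 were higher and 1 lower. Hbb-y, an embryonic globin, had 2.0, 2.73, 8.95 and 7.86, while Hba-x, Hbb-bh1, Gata1 and Klf1 stayed at 3.17 or less. Tek, an angiopoietin receptor, had 3.33, 7.49, 9.22 and 8.74, while Pecam1, Cdh5 and Kdr stayed at 3.38 or less. Laptm5, a lysosomal protein of blood cells, had 3.81, 4.69, 9.50 and 8.38, while Ptprc and Csf1r stayed at 3.64 or less. The linear levels of the 10 erythroid genes summed to 694 in the Oct4-negative and 1710 in the EpCAM-positive fraction, led by the transferrin receptor Tfrc at 9.22 and 10.44. Those of the 16 endothelial genes summed to 508 and 1065, and those of the 17 leukocyte genes to 369 and 639. The part of these cell types in the totals was not tested.

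Most collagens of the fibroblast matrix were lower, by different courses. Of 14 measured matrix collagens 13 were lower and 1, Col15a1, was higher by 1.11. The median total was -3.80 and the mean steps were -1.37, -1.40 and -0.83. Col1a1 had levels of 11.33, 8.06, 6.15 and 5.26, with the largest step at the Oct4 gate, whereas Col3a1, at 11.14, 11.13, 8.51 and 6.41, began to differ at the Klf4 gate. Col8a1 and Col11a1 were higher by 1.43 and 1.01 at the Oct4 gate before they were lower. The collagen VI chains did not move as one: Col6a2 had 8.88, 5.24, 4.81 and 5.26, while Col6a3 had 6.93, 3.50, 6.66 and 4.95. Over the whole Col family, with collagens of basement membranes and others, 19 of 23 members were lower and 1 higher, with a median of -3.46, the lowest of the 181 families.

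The enzymes that process collagen differed less. Of 17 measured 9 were lower and 2 higher, with a median of -1.04. The crosslinkers Loxl1, Loxl3 and Lox had totals of -6.25, -2.89 and -2.69, but the hydroxylases P4ha1 and Plod2 had -0.79 and -0.68, and Pcolce2, a procollagen protease enhancer, was higher by 1.25. Elastic fibre genes were lower for 11 of 13 measured, with a median of -3.23, or -1.79 with the mean of all probe sets of a gene. Fbn2, a fibrillin, had 10.22, 10.64, 5.97 and 4.95, and Eln, elastin, 7.70, 4.35, 4.41 and 4.55. Their differences lay at the Klf4 and the Oct4 gate, respectively, and that of Efemp1, at 9.48, 9.65, 6.89 and 3.77, at the Klf4 and EpCAM gates.

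Small proteoglycans and matricellular proteins, which tune matrix and signalling, were lower for 18 of 21 measured, with a median of -3.95. Ccn1 and Ccn2 had totals of -5.24 and -5.13, Tnc, tenascin-C, -5.52 and Postn, periostin, -3.90 after a level of 10.61 in the Oct4+Klf4-negative fraction. Dcn, decorin, was the only higher gene of this list. Dcn had 6.76, 8.62, 10.97 and 10.98, 18.7-fold higher at the EpCAM-positive end. Basement membrane genes were lower for 9 of 15, with Col4a1 and Col4a2 at -3.46 and -4.26 and Nid2, nidogen, at -3.84, while Lamc1, at 9.59 and 9.52, was alike and Lama3 higher. Matrix proteases and their inhibitors were lower for 10 of 13 and higher for 0, and 6 of the 10 had their largest step at the Oct4 gate. The plasminogen activators Plau and Plat had totals of -4.87 and -3.74, Mmp2 had -2.43, and the inhibitor Timp1 had -0.06.

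Mesenchymal transcription factors were lower for 17 of 24 measured and higher for 0, with a median of -1.91. Their largest steps were spread, 7 at the Oct4 gate, 6 at the Klf4 gate and 4 at the EpCAM gate. Prrx2, at 7.12, 3.70, 2.71 and 3.04, and Snai1, at 5.74, 2.97, 3.20 and 3.29, differed at the Oct4 gate. Osr1 at 7.15, 6.29, 3.10 and 3.12 differed at the Klf4 gate. Zeb1, Zeb2 and Snai2 had steps of -3.92, -3.0 and -1.73 at the EpCAM gate. Zeb2, at 6.21, 8.13, 5.24 and 2.25, was first higher by 1.92 at the Oct4 gate. Twist1 had 8.48, 7.56, 6.47 and 5.10, Prrx1 9.76, 8.78, 8.98 and 8.32, and Tbx15 and Runx1 had totals of 0.12 and 0.14. Vim, vimentin, had 12.15, 12.06, 11.50 and 9.02, with a step of -2.48 in a total of -3.13 at the EpCAM gate.

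**Figure D5:**
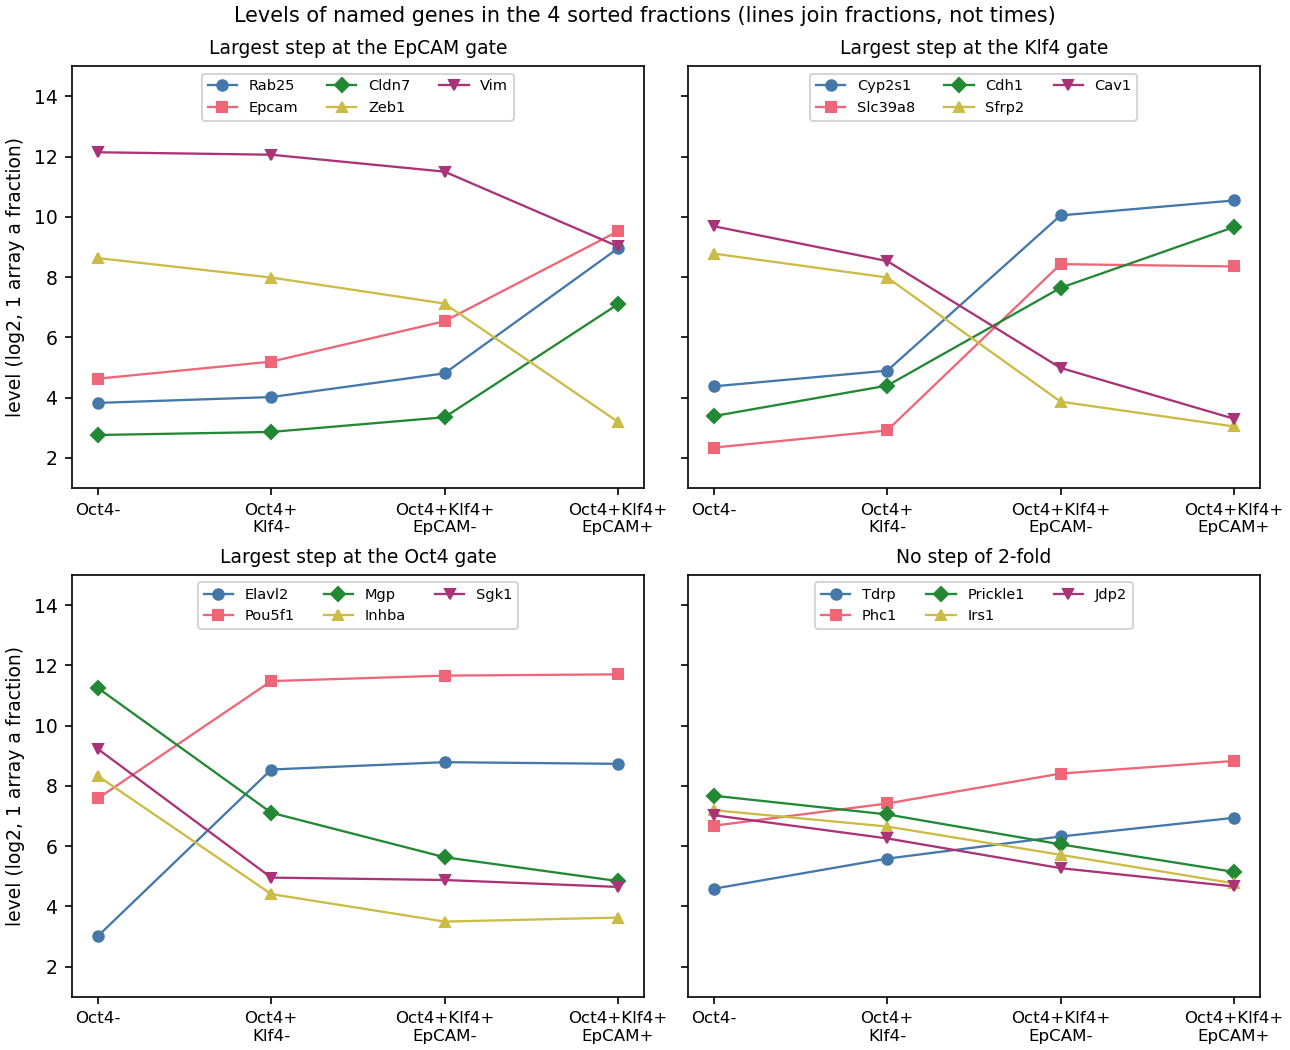
Levels in log2 units (y axis) of 20 named genes in the 4 fractions (x axis, 1 array each), grouped by the gate of their largest step or by having no step of 2-fold; lines join fractions and not times. Rab25 goes from 4.81 to 8.95 and Zeb1 from 7.12 to 3.20 at the EpCAM gate, while Cyp2s1 goes from 4.90 to 10.05 at the Klf4 gate and Elavl2 from 3.02 to 8.54 at the Oct4 gate.

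Contractile genes were lower for 16 of 23 measured and higher for 1, Mylk, with a median of -1.31. After Acta2, the largest totals were those of Tagln, -3.50, Myl9, -3.49, and Tgfb1i1, -3.18. For 10 of the 16 the largest step lay at the Klf4 gate. Abundant members of general use differed little, Myh9 by -0.73 and Tagln2 by 0.50. Of 7 measured caveola genes 4 were lower, Cav1, Cavin2, Cav2 and Ehd2, with totals of -6.39, -5.05, -3.92 and -2.14, and 1, Pacsin3, was higher by 1.23. Cavin1 stayed between 9.38 and 9.95 and Cavin3 between 5.51 and 6.50, though 1 probe set of Cavin1 went the opposite way by at least 2-fold. Targets of YAP and TEAD, the effectors of mechanical tension, were lower for 11 of 18, with a median of -1.46, Axl at -3.14 and Amotl2 at -2.20. Nt5e, the enzyme CD73, was higher by 4.18 in its main probe set, while another probe set of it went the opposite way by at least 2-fold.

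Among fibroblast surface receptors 9 of 19 measured were lower and 3 higher. Nt5e, given above with its probe set going the opposite way, is 1 of the 3. Cdh2, which encodes N-cadherin, had 8.62, 8.39, 6.41 and 4.49, lower past the Klf4 gate and again past the EpCAM gate. Thy1 had 8.38, 9.81, 6.57 and 5.30, and Pdgfrb 7.69, 6.33, 5.26 and 4.86. Cd44 at 9.94 and 9.68, Itga5 at 8.30 and 8.02 and Eng at 7.50 and 6.96 stayed within 2-fold. Itga1 had 4.37, 8.75, 3.52 and 2.77, a level in the Oct4+Klf4-negative fraction far above both ends.

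In the TGF-beta group 10 of 17 measured genes were lower and 3 higher, with a median of -1.05 and mean steps of -0.99, 0.06 and -0.57. With a floor at the 75th percentile the median was -1.99. Inhba, an activin subunit, had 8.33, 4.41, 3.50 and 3.63, Tgfbi, an induced matrix protein, had 8.0, 7.59, 5.30 and 4.06, and Grem1, a BMP antagonist, had 7.05, 7.61, 6.34 and 3.62. The Id genes, targets of BMP signals, split: Id3 had a total of -3.83, Id2 of -0.80, Id1 of 1.06 and Id4 of 3.45. In the FGF group 5 of 17 were higher and 5 lower. Fgf7 and its receptor Fgfr2 had totals of -4.34 and -4.04, against 3.72 for Fgf15, 3.17 for the phosphatase Dusp4 and 3.0 for the carrier Fgfbp1. In this list all 5 lower genes had their largest step at the Oct4 gate and all 5 higher ones at the Klf4 gate. In the Fgf symbol family 5 of 8 members were higher and 1 lower. Of those 5, 2 had the largest step at the Oct4 gate and 3 at the Klf4 gate.

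Of 8 measured receptors and ligands of the EGF family 3 were higher and 4 lower. Erbb3, a receptor of neuregulins, had 4.63, 5.27, 8.43 and 9.86, 37.4-fold higher, and its adaptor partner Grb7 had 2.87, 3.69, 6.74 and 8.73. The ligands Ereg at 6.62, 2.77, 2.82 and 2.77, Nrg1 at 5.18, 3.95, 2.57 and 2.73 and Hbegf at 7.40, 5.25, 4.27 and 4.98 were lower. Of 12 measured Wnt genes 5 were higher and 4 lower. The antagonist Sfrp2 had a total of -5.74 and its relative Sfrp1 of 2.72, and the targets Axin2 and Lef1 had -1.32 and 2.02. Of 14 Notch genes 4 were higher and 3 lower, with Notch3 and Notch1 at -3.46 and -2.14 and Notch4 at 2.34. In the IGF group 4 of 14 were lower and 1 higher. Igfbp4 had -3.86 and Igf1r -0.26, and Igf2 had 10.39, 8.14, 7.76 and 9.63, lower between the ends than at them. In the retinoid group Crabp1 did likewise, with 10.79, 7.26, 9.92 and 10.40.

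Chemokines and acute phase genes were lower for 11 and higher for 2 of the 15 measured of 27 on the array, with a median of -2.35. With no floor the median over the 27 was -0.82, and with a floor at the 75th percentile it was -3.66. For 9 of the 11 the largest step lay at the Oct4 gate. Cxcl1 had 10.24, 8.01, 5.98 and 5.97, Ccl2 8.04, 5.24, 4.39 and 4.39, and Tnfaip2, an inflammation-induced gene, 9.40, 4.96, 5.96 and 6.84. Csf1, the macrophage growth factor, had 8.95, 8.68, 4.75 and 3.88 and differed at the Klf4 gate. Of 8 measured interferon response genes 3 were higher and 1, Ifit2, was lower by 3.90. Genes of MHC class I were divided. H2-K1 and H2-D1, heavy chains, had totals of 3.85 and 1.63, whereas B2m, their light chain, had -1.08 and Tap1, the peptide transporter, had 8.15, 8.13, 5.99 and 5.03. Complement genes were lower for 2 of 8, Masp1 and C1s1.

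Immediate early genes were lower for 7 of 21 measured and higher for 1, Nr4a1, with a median of -0.13. Fos had 8.37, 8.49, 7.01 and 5.79 and Egr1 10.26, 10.09, 9.26 and 8.30, while Atf3, Jund and Zfp36 had totals of 0.02, -0.02 and -0.13. Of 17 measured genes of the p53 and senescence group 6 were lower and 0 higher, with a median of -0.81. The cell cycle inhibitors Cdkn2a and Cdkn2b, of the Ink4 locus, had 8.46, 7.41, 6.71 and 6.48 and 9.14, 7.95, 7.10 and 7.09. Mdm2 had 11.32, 10.78, 10.20 and 9.71, and Cdkn1a, another p53 target, stayed between 10.50 and 10.69.

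Stress programmes did not run together. Of 18 measured genes of the integrated stress response, the pathway of amino acid shortage, 6 were higher, all with the largest step at the Klf4 gate, and 2 lower. Cth, Trib3 and Chac1 had totals of 2.92, 2.53 and 2.10, while Atf4 had 0.47 and Ddit3 -0.93. Of 18 genes of the unfolded protein response 1, Herpud1, was higher by 1.3 and 0 lower, and Hspa5 stayed between 11.07 and 11.16. Of 16 heat shock genes 3 were higher, Hspb1, Hspa1a and Hspa1b by 1.97, 1.77 and 1.06, and 2 lower, Cryab by 1.41 and Hspb8 by 1.05. In the NRF2 group 6 of 16 were lower, with Gstm2 at -2.19, Hmox1 at -1.34 and the metallothioneins Mt1 and Mt2 at -1.27 and -1.44, and Gsta4 was higher by 2.28.

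Most proliferation genes stood slightly higher, by less than 2-fold. Of 24 measured mitosis genes 1, Nusap1, was higher by 1.41 and 0 lower, with a median of 0.47, and every one of the 24 had a total above 0, from 0.05 for Ccnb2. Of 23 replication genes 2, Mcm10 and Gins1, were higher and 1, E2f1, lower, with a median of 0.45. DNA repair genes had a median of 0.48, with Brca1 at 1.25 and Xrcc1 at -1.03, nucleotide synthesis 0.36 and ribosome production 0.28. Mki67 had 10.45, 10.78, 10.81 and 10.75. Among G1 regulators Ccnd2 and Cdkn2c were lower by 1.72 and 2.87.

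Central metabolism held lists with no called gene. Of 24 measured genes of oxidative phosphorylation 0 were called, their totals ran from -0.48 to 0.24 and their median was -0.10. Of 16 genes of cholesterol synthesis 0 were called, but their mean steps were -0.55, 0.34 and 0.28, so that they were lower past the Oct4 gate and level again at the end. Msmo1 had 7.80, 6.40, 7.10 and 7.74. In glycolysis 4 of 20 were higher, Slc16a3, a lactate exporter, by 2.92, Aldoc by 2.78, Pfkp by 1.80 and Hk2 by 1.75, and 1, Pfkm, was lower by 1.48, while Ldha, Pgk1 and Pkm had totals of -0.12, 0.04 and -0.21. Elovl7 and Dgat2, of lipid elongation and storage, were higher by 2.95 and 2.36, and Plin2, the coat of lipid droplets, lower by 3.38. Of 16 lysosome genes 5 were lower, with Gpnmb at -4.36 and Ctsb at -1.56, and 1, Npc1, was higher by 1.15.

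Chromatin genes included Tet2, a DNA demethylating enzyme, at 7.14, 8.07, 9.30 and 9.86, and Dnmt3b, a methyltransferase, at 5.26, 6.19, 5.91 and 7.59. Tet1 was lower by 1.98 and Dnmt1 had a total of 0.33. Of 21 Polycomb and demethylase genes 5 were higher and 0 lower, Phc1 by 2.15, Cbx2 by 1.60, Cbx7 by 1.20, Kdm3a by 1.19 and Ezh1 by 1.12. Of 14 measured imprinted genes 4 were lower, Dlk1 by 3.21, Ndn by 2.08, Peg3 by 1.85 and Nnat by 1.40. Phlda2, a placental growth restrainer, was higher by 3.27 and Slc22a18, its neighbour in the same imprinted cluster, by 1.85. Housekeeping genes had a median of 0.02, with 2 of 17 lower, B2m and Gusb.

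Of the 181 symbol families, 163 had a median total within 0.5 of 0, 5 had a median of at least 1 and 4 of -1 or less. Besides Krt and Klk the high ones were Tubb, Fgf and Pla. In Tubb, the beta tubulins, 5 of 8 were higher, with Tubb3, Tubb4a, Tubb2a and Tubb2b at 4.88, 4.47, 2.34 and 2.09, Tubb5 at 0.20 and Tubb6 at -0.59. In Pla, the phospholipases, Pla2g4d and Pla2g4f were higher by 3.35 and 2.91 and Pla2g4a, the form of general use, lower by 2.46. Besides Col the low families were Mmp, Rgs and Hoxa. In Rgs, inhibitors of G protein signals, Rgs16, Rgs2, Rgs17, Rgs3 and Rgs10 were lower by 1.39 to 3.11, and Rgs20 was higher by 3.71. In Hoxa 5 of 8 were lower, the antisense transcript Hoxa11os among them and Hoxa13 by 2.51, while Hoxa9 and Hoxa7 had totals of 0.08 and 0.11. In Slc, the solute carriers, 37 of 195 were higher and 19 lower, with Slc7a3, a cationic amino acid transporter, at 5.45 and Slc7a2, of the same kind, at -2.95. In 34 families no gene was called.

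Called genes were then classed by which steps reached 2-fold on their own. Among higher genes 504 did so at the Klf4 gate alone, 139 at the Klf4 and EpCAM gates, 131 at the EpCAM gate alone, 72 at the Oct4 gate alone and 62 at the Oct4 and Klf4 gates. Among lower genes the counts were 322, 82, 35, 232 and 81 in that order. Steps past 2-fold at each of the gates were found for 5 higher genes, Alox12b, Cdh1, Arhgef16, Misp and Mansc1, and for 7 lower ones, with Cav1, Cyp1b1, Acta2, Tnc and Col4a2 among them. No single step reached 2-fold for 364 higher genes, 26.8%, and 386 lower ones, 31.4%. Their median totals were 1.22 and -1.28, so many lay little past the 2-fold cut, and 1 step can hold most of such a total. Phc1 at 6.68, 7.42, 8.41 and 8.83 and Irs1, an insulin receptor substrate, at 7.19, 6.65, 5.71 and 4.76 had gradual courses. Both were picked from the largest totals of this class and do not stand for the rest of it. All 3 steps pointed in the direction of the total for 604 higher and 593 lower genes.

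A step of 2-fold against the total was found for 80 higher genes, 5.90%, and 75 lower ones, 6.09%. Stk26, a kinase, had 3.19, 8.55, 4.77 and 6.24, and Alpl, alkaline phosphatase, 4.68, 8.08, 6.83 and 7.15. Sprr1a, a cornified envelope precursor, had 5.65, 4.18, 5.74 and 7.97. In the other direction, Ptx3, an acute phase protein, had 7.33, 9.70, 4.51 and 3.66, and Icam1, an adhesion receptor of leukocytes, 7.88, 7.21, 4.04 and 5.99. Col6a3, given above, was lower, then higher, then lower again.

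The ends also hide genes that differed between them. With ends within 2-fold, 182 of the 11428 measured genes were at least 2-fold higher in a middle fraction than at either end. Of these, 164 peaked in the Oct4+Klf4-negative fraction. Nefm, a neurofilament, had 2.51, 7.97, 3.13 and 2.68, and Igf1 had 3.76, 7.18, 3.55 and 3.01. At least 2-fold lower in a middle fraction were 108 of the 11428 genes, 95 of them lowest in the Oct4+Klf4-negative fraction. This count took only genes with both ends at the floor or above. The count of 182 needed the floor in the middle fraction alone, so the counts are not on a par. Among the 95, Foxc2, a mesenchymal transcription factor, had 6.79, 3.11, 5.54 and 6.22, and Nuak2, a YAP-responsive kinase, 6.71, 4.43, 5.27 and 6.60. These genes have totals under 2-fold and appear in no count of the ends.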

How the data were processed

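Each of the 4 sorted fractions gave 1 Affymetrix array, and its values are log2 levels that the authors made with RMA, per the submitters' processing notes. Build, software version and scan data are not given in the sources used here. The deposited log2 values were used unchanged. Of 45101 probe sets, 64 controls were set aside and 34945 carried 1 gene symbol, giving 18193 genes. Where several probe sets named a gene, the one brightest on average was taken. Differences are between single arrays, so sizes and counts replace tests, and sequencing-style depth does not apply. The SD of the total between probe sets of the same gene had a median of 0.177 over 5708 genes, which covers probe differences only. Named genes were the 15 largest in each direction, up to 5 in each list, the markers, and examples of each class of split. Outside the markers, these picks left out uncharacterized names and genes with another probe set at the floor going the opposite way. Some others were named after their values were seen. The gene lists and examples were chosen with earlier results of these data known. Computation used Python 3.11.15, pandas 2.3.3 and NumPy 2.4.6, and was tested on simulated data. The 7 alternatives are given in the closing section.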

Additional observations from a re-analysis of the deposited data

Results flagged for a closer look

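Probe sets outside the gene counts, those with no symbol or several, also differed between the ends. Of 3682 such probe sets at the floor, 237 were higher at the EpCAM-positive end and 485 lower, or 6.44% and 13.2%. They stand out because they belong to data that the gene comparison does not use. No cause was tested.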

How the results depend on the processing

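With 1 array a fraction, precision is limited by the number of arrays. Counts of 1357 higher and 1231 lower genes became 797 and 731 with the floor at the 75th percentile, and 798 and 684 at a 3-fold threshold. They were 1171 and 1050 with the mean of all probe sets, 1200 and 1089 without probe sets marked as matching several transcripts, 1507 and 1328 with no floor, 1258 and 1345 after centring, and 1244 and 1356 after a further quantile normalization. In none of the alternatives was a called gene called in the opposite direction. A change of sign short of a call was not counted. The changes of floor or fold reuse the same totals and could not reverse a call. Centring shifted every total by the same 0.0747 and could not reverse one either. The mean Klf4 step of higher genes became 1.60 with the higher floor and 1.83 at 3-fold, and lower genes at 3-fold had mean steps of -0.87 at the Oct4 gate and -1.29 at the Klf4 gate. With the higher floor, genes with no single step of 2-fold numbered 224 among higher and 233 among lower genes. Steps at the Klf4 gate alone, with no step against the total, numbered 299 and 181 with that floor instead of 504 and 322, and 189 lower genes had such a step at 3-fold. These classes were recomputed as alternatives chosen after seeing the data. The higher floor and the larger fold leave fewer genes by construction. The adipocyte median of -1.29, over 4 genes, was 0.77 with the mean of all probe sets and 0.0377 with no floor, and the cause was not tested. Of 1428 list and family medians recomputed, 1226 moved by less than the spread between probe sets, 200 moved by more and 158 changed sign, 156 of these from a median under 1 in size. The 1226 include 60 lists and 181 families after centring, whose shift lay under that spread by construction. Among lists in the text, with no floor the medians were 0.55 for early pluripotency, 0.94 for the cornified envelope, -0.82 for chemokines and 0.12 and 0.17 for trophoblast and neural genes (1.16 and 2.0 as counted). No paired analysis was possible because each fraction has 1 array.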
